A study of Homo sapiens with 30 samples.

Results

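The comparison described here is the effect of a guide RNA on the editing made by Cas13b-ADAR2 DD (E488Q). This protein joins Cas13b, an RNA-guided RNA-binding CRISPR protein, to the deaminase domain (DD) of human ADAR2 carrying the E488Q change, and the column headers call it REPAIR. It was measured in 1 library with gRNA and 1 library without gRNA, with 1 library of the gRNA alone as the guide-only control and the mean of 3 untransfected runs as the baseline. These are part of 30 samples of the human embryonic kidney line HEK 293T, and all 382978 sites that the authors list were used. Cells were harvested 60 h after lipofection for poly(A) RNA. The gRNA was transcribed from a U6 promoter, per the labels. The untransfected runs are technical repeats of 1 library, so their spread contains no variation between cultures. Every other condition has 1 library, so no difference between the libraries with and without gRNA has a replicate error.

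ADAR enzymes act on double-stranded RNA and convert adenosine to inosine, which reverse transcription and sequencing read as guanosine. The E488Q change in the deaminase domain raises its activity and loosens its preference for the bases around the edited adenosine. A Cas13b fusion carries this domain to a transcript that pairs with the guide, where a mismatch opposite the chosen adenosine favours its deamination. Without a guide the domain can still meet other RNAs, and editing there is called off-target. The quantity reported here is the share, the percentage of reads with G at a listed site. Depth is unknown, because the deposited tables hold shares and adjusted p-values without read counts.

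The sites that carry the largest differences are shown first as the transcript strand of GENCODE release 29 on GRCh38, written 5′ to 3′. Each window has 10 bases on either side of the edited base, which is the capital letter. The first is the target adenosine in the 3′ untranslated region (UTR) of RAB7A, the next 4 had the largest gains with gRNA among sites called in both libraries, and the last 4 had the largest losses.
RAB7A target, chr3:128814202 (+): aaatccagctAgcggcagtat
ATRN, chr20:3559409 (+): ccttgcttctAgggagtggct
SOCS7, chr17:38395343 (+): tgctctatccAgtgtcccgat
MAN2B2, chr4:6597272 (+): gccctgcagcAgctccagcag
TAP1, chr6:32848824 (-): ctctccatctAccccagagta
ABL1, chr9:130886017 (+): ccaggtgggaAcggctgatgt
INA, chr10:103288779 (+): aatgtcttcaAggcttcagtc
GPT2, chr16:46930348 (+): aagttagggaAgctcaggagc
FUZ, chr19:49813141 (-): ccgcactgacAgtccccacgt
Of the 10 largest gains under that rule, 7 had U immediately 5′ of the edited adenosine, 3 had C and 0 had A. Of the 10 largest losses, 2 had U, 2 had C and 6 had A. Among all listed adenosines in exons of 1 gene, 22.3% had U there, 30.1% C, 35.6% A and 12.1% G. The gains and losses were chosen for their differences, so the counts describe them and are no test.

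Across all listed sites the editing level was lower in the library with gRNA. The mean share was 6.16% without gRNA and 3.64% with gRNA, a ratio of 0.590, and the median share was 3.11% and 1.45%. The gRNA alone gave a mean of 0.144%, beside 0.153% ± 0.00662 (SD over 3 technical runs) in untransfected cells. The gRNA by itself was just below the lowest untransfected run, 0.146%, and both fusion libraries were far above all of these. A share of exactly 0 was listed at 56322 sites without gRNA and at 98138 with gRNA.

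The high end of the distribution thinned as well. Shares of at least 10% were found at 78819 sites without gRNA, 38463 with gRNA and 477 with the gRNA alone. Shares of at least 50% were found at 948, 393 and 52 sites. The gRNA alone and the 3 untransfected runs, at 44 to 51 sites, were alike in this count.

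A site was counted as called when it had both an adjusted p under 0.01 in the authors' deposited table and a share above the untransfected mean. By that rule the authors' deposited table called 112837 sites in 6934 genes without gRNA, 29.5% of all listed sites. With gRNA the authors' deposited table called 49425 sites in 5396 genes, 12.9% of the list. With the gRNA alone it called 23 sites in 16 genes, 0.00601%. Genes were counted only over called sites in exons of 1 gene. Those sites numbered 104345 without gRNA, 45811 with gRNA and 23 with the gRNA alone. In the 3 untransfected runs 0, 1 and 4 sites were called by the same rule. The sources used here state neither the test behind these p-values nor its reference sample, and a count of calls also moves with the depth of a library, which was not tested.

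Site by site, the share was lower with gRNA at 71.5% of sites and higher at 18.4%, with a median difference of -1.19 percentage points and a mean of -2.52. At 38897 sites the values were equal, and 38033 of these were 0 in both libraries. The differences ran from -54.5 to 45.8 points. A difference of at least 10 points was used as the threshold. Past it, 25831 sites were lower with gRNA, 6.74% of the list, and 1334 were higher, 0.348%. Of the lower ones, 77.2% were called without gRNA in the authors' deposited table. Of the higher ones, 53.4% were called in neither library there. When the shares without gRNA were first multiplied by the ratio of the mean shares, 5863 sites were higher by 10 points and 2355 were lower, so the direction of the split turns with that scaling.

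**Figure D1:**
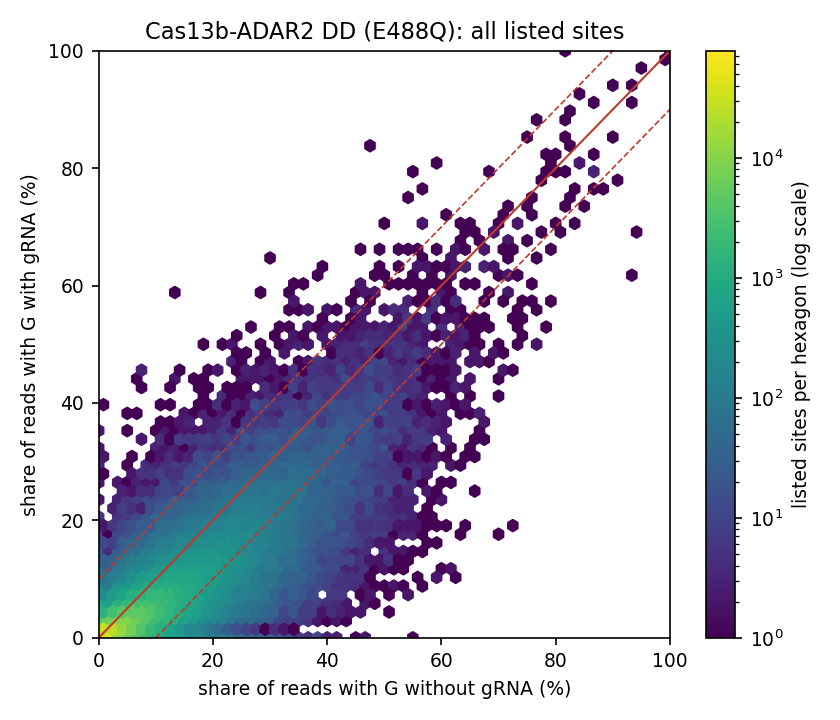
Share of reads with G at all listed sites without gRNA (x axis, %) against with gRNA (y axis, %), as hexagons coloured by the number of sites on a log scale. The solid line marks equal shares and the dashed lines mark 10 points; 25831 sites lie on or below the lower dashed line and 1334 on or above the upper one.

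The target adenosine went the other way. It lies in a 3′ UTR, at chr3:128814202 (GRCh38, + strand), within RAB7A (ENSG00000075785.12), the gene of a Rab GTPase of late endosomes and lysosomes. The labels used here do not name the target, and the site was identified as the RAB7A site called with guide and not without it in the other 10 pairs of libraries. Its share was 2.53% without gRNA, 11.6% with gRNA and 1.33% with the gRNA alone, and it was 0%, 0.606% and 1.75% in the 3 untransfected runs. The library with gRNA stood apart from the other 5 values, which lay between 0% and 2.53%. The gain was 9.11 points, or 4.60-fold, and the authors' deposited table gives an adjusted p of 8.78e-09 with gRNA and 0.208 without.

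The neighbouring adenosines did not share the target's gain. Within 50 nt the list holds 6 other sites, all in the same UTR. The highest of them with gRNA was 6 nt downstream, at 0.413% without gRNA, 1.33% with gRNA and 0.676% with the gRNA alone. At the site 9 nt upstream the share was 0% without gRNA, 0.417% with gRNA and 0.637% with the gRNA alone. The site 8 nt upstream had 0% and 0.418%, and the site 34 nt downstream had 0.452% and 0%. The sites 10 and 29 nt upstream were at 0% in both fusion libraries. None of the 6 was called in either library in the authors' deposited table.

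**Figure D2:**
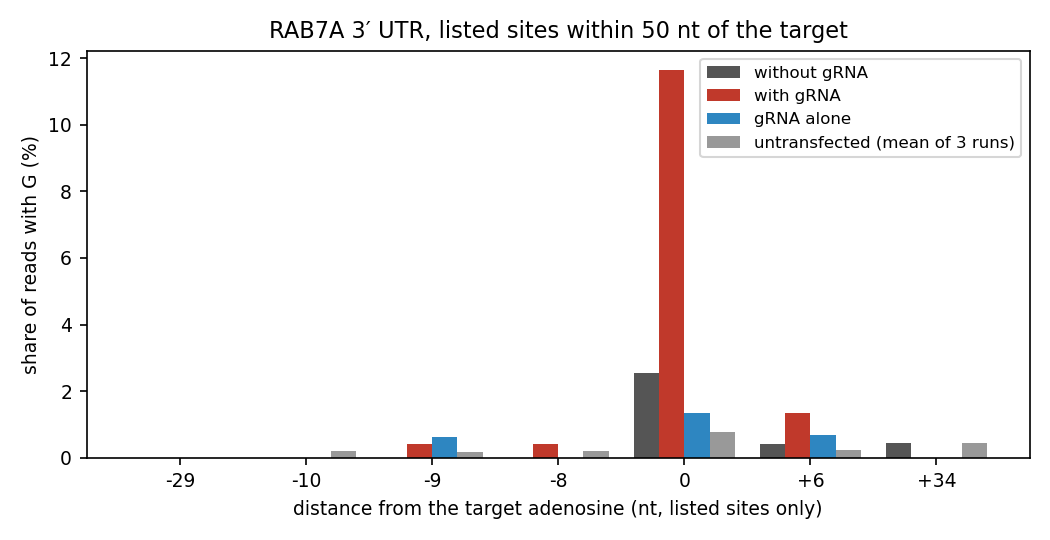
Share of reads with G (%) at the listed sites within 50 nt of the RAB7A target, by distance from it in nt (x axis, listed sites only and not to scale); bars are single libraries or the mean of 3 untransfected runs. The bar with gRNA at the target reaches 11.6%, while each of the 6 neighbours is at or below 1.33% in both fusion libraries.

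The rest of the RAB7A transcript followed the whole list. Over its 55 listed sites, target included, the mean share was 2.48% without gRNA and 1.60% with gRNA, with 35 sites lower, 12 higher and 8 equal. The T64A codon site had the highest share, 26.6% without and 15.9% with gRNA, and it was called in both libraries in the authors' deposited table. The 3′ UTR site at chr3:128814723 had 20.5% and 14.8%. At R103R the shares were 11.1% and 5.0%, and at Y78C they were 9.83% and 2.43%. The 3′ UTR site at chr3:128814132, upstream of the target, had 8.54% and 3.72%. K38K was the only other called RAB7A site with a higher share with gRNA, 5.75% against 6.01%. The lower level with gRNA was therefore present on the same transcript on which the target gained.

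Placed among all sites, the target was not at the top. Its gain of 9.11 points ranked 1707 of 382978, so 0.445% of sites gained more, and 7.88% of sites had a higher share with gRNA than the target. Among the 3168 sites called with gRNA in the authors' deposited table whose share without gRNA was no higher than the target's, it ranked 19 by gain. The largest gains in that group, which was chosen after its values were seen, were in PPP1R14C, TYRO3 and HEXDC. PPP1R14C, an inhibitor of protein phosphatase 1, went from 0% to 34.4% at a 3′ UTR site. The receptor tyrosine kinase TYRO3 went from 0% to 32.7% at K693K. HEXDC, a hexosaminidase, went from 0% to 31.2% at K22R. The gRNA alone gave 0%, 1.67% and 4.17% at these 3 sites.

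Long runs of sequence shared with the target region were about as rare among the gains as among all sites. For each site in an exon of 1 gene, the longest run of bases shared with the 50 nt on either side of the target was found on the transcript strand. A run of at least 10 bases was shared by 0.621% of all 352370 such sites, by 0.730% of the 1233 sites higher by 10 points and by 0.623% of the 23931 lower by 10 points. A run of at least 12 bases was found at 104 sites in all, at 0 of the higher ones and at 4 of the lower ones. With so few sites in all, the count of 0 among the higher ones decides nothing. The median difference of all 104 was -1.02 points. The guide's own sequence was not used here, so this measure does not show pairing with it.

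The other 10 pairs of libraries with and without guide give the only spread between pairs. They hold MCP fusions of the ADAR1 or ADAR2 deaminase domain with MS2 adRNA and full-length ADAR2 with GluR2 adRNA, in wild-type and hyperactive (E1008Q or E488Q) forms. The log2 ratio of called sites with over without guide, from the authors' deposited table, was -1.19 for Cas13b-ADAR2 DD (E488Q). Over the other 10 it was 0.65 ± 0.81 (SD, n = 10), from -0.21 to 2.28, and 8 of 10 were above 0. The Cas13b value was the lowest of the 11. In an exact two-sided permutation test of 1 pair against 10 its p was 0.182 (0.273 adjusted over 3 measures), where the smallest p the design allows is 0.0909.

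By mean share the Cas13b pair was again the lowest of the 11, while several other pairs changed places. Its log2 ratio was -0.76 for the Cas13b pair and 0.37 ± 0.52 (SD, n = 10) for the others, from -0.13 to 1.53, with an exact two-sided permutation p of 0.182 (0.273 adjusted). Among constructs with ADAR2 E488Q, MCP-ADAR2 DD (E488Q)-NES had 35283 called sites without and 42713 with its guide. MCP-ADAR2 DD (E488Q)-NLS, the version with a nuclear localisation signal in place of a nuclear export signal, had 28023 and 38080. Full-length ADAR2 (E488Q) had 25726 and 125372, again in the authors' deposited table. Without its guide the Cas13b fusion had more called sites than each of these 3, and with its guide it had more than both MCP fusions and fewer than full-length ADAR2 (E488Q).

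**Figure D3:**
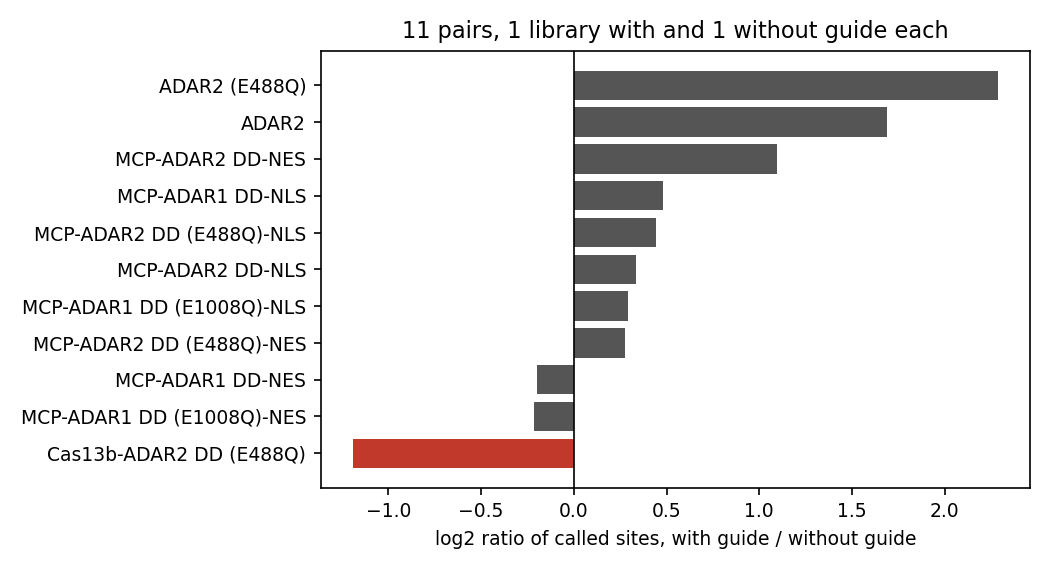
Log2 ratio of called sites with over without guide (x axis) for the 11 pairs of libraries, 1 library with and 1 without guide each. The Cas13b bar, at -1.19, is the lowest, and the 10 other pairs lie between -0.21 and 2.28.

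At the target the Cas13b pair was near the low end of the range. The site was chosen for being called with and not without guide in the other 10 pairs, so their gains are a description and no p is given for this measure. The gain of 9.11 points for Cas13b stood beside 25.5 ± 11.8 points (SD, n = 10) for the others, from 6.32 for MCP-ADAR2 DD-NLS to 40.8 for MCP-ADAR1 DD (E1008Q)-NES. Its 2 nearest neighbours were MCP-ADAR2 DD-NLS, with a target share of 7.00% with guide, and MCP-ADAR2 DD (E488Q)-NLS, with 11.3%. The Cas13b share of 11.6% stood just above the latter. Without guide the Cas13b share was 2.53%, and the others, uncalled there by choice, were 0% to 2.13%.

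A fit over all sites tested where the guide difference of the Cas13b pair departed from that of the other 10 pairs. It used limma on arcsine square root shares, with Benjamini-Hochberg adjustment over 382978 sites, and the lone Cas13b pair was assumed to vary like the others. At an adjusted p under 0.05, 22 sites passed, 0.00574% of the list, all lower with gRNA in the Cas13b pair, while 45415 sites had an unadjusted p under 0.05. The 47 sites named by rule were chosen for their differences in this pair or their place near the target. The target itself was chosen for its calls in the other 10 pairs. Values of the named sites in this fit are therefore no test, and none is given. Of the 22 sites, 17 were at 0% with gRNA and 20 were called in none of the other 20 deaminase libraries in the authors' deposited table. Those 20 entered the list through a high share in the Cas13b library without gRNA, so their direction was set by that selection and supports nothing. Restricting the fit to the 365546 sites called in at least 1 of those libraries left 0 sites, with 40273 at an unadjusted p under 0.05.

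The 22 sites spanned differences from -31.4 to -6.25 points. INPP5K, an inositol polyphosphate 5-phosphatase, had 34.6% without gRNA and 5.88% with gRNA at a 5′ UTR site, against at most 5.88% in any other deaminase library. RRAGC, a Rag GTPase that signals amino acid supply to mTORC1, had 22.9% and 0% at a 3′ UTR site, against at most 2.86% elsewhere. MCM10, a DNA replication factor, had 21.3% and 0% at D636G, and the chloride transporter CLCN3 had 11.5% and 1.59% at E853E. TMEM127, an endosomal membrane protein, had 22.2% and 0% at K124E. What these sites had in common was a share in the library without gRNA that the remaining deaminase libraries lacked. PAFAH1B1 and ANTXR1 were the 2 exceptions, called in 2 and 1 of the other libraries in the authors' deposited table.

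The ratio of the fusion libraries was described by how readily a site was edited elsewhere. Sites were binned by their mean share in the 4 MCP-ADAR2 DD (E488Q) libraries, which neither Cas13b library enters. Where that mean was 0 (46522 sites), the Cas13b shares averaged 1.93% without and 0.870% with gRNA, a ratio of 0.452. Between 5 and 10% (35784 sites) they averaged 12.9% and 7.86%, a ratio of 0.611. Above 50% (314 sites) they averaged 53.3% and 47.4%, a ratio of 0.890. The ratio was higher in each successive bin. Low bins hold sites that were listed for the library without gRNA alone. Over sites called in at least 1 of the other 20 deaminase libraries, a choice made after the data were seen, the ratio went from 0.467 in the lowest bin to 0.878 in the highest and was again higher in each successive bin. In the bins of all listed sites, the ratio of the odds of the mean shares, which allows for the ceiling at 100%, went from 0.447 to 0.790. In points the gap was widest, at -7.01, between 30 and 50%. In the bin above 50% the gRNA alone gave 13.2% and untransfected cells 12.9%, so it holds sites that read G in these cells without any construct. Whether such reads come from editing was not tested.

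**Figure D4:**
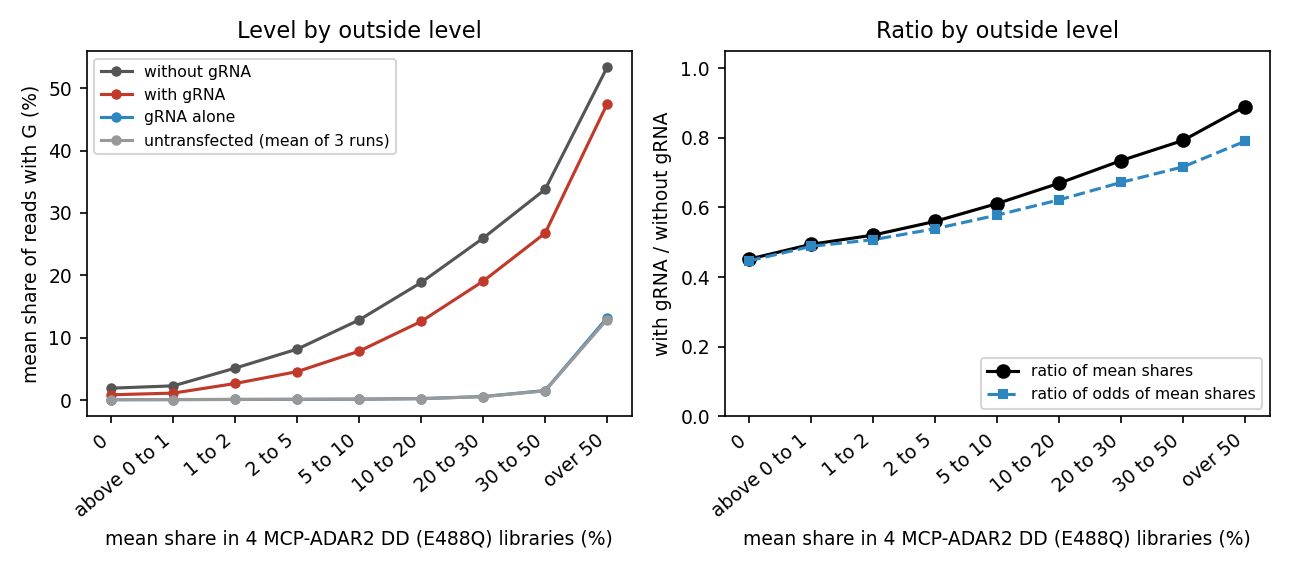
Left, mean share of reads with G (%) in the 2 fusion libraries, the gRNA alone and the untransfected runs, by bins of the mean share in the 4 MCP-ADAR2 DD (E488Q) libraries (%). Right, the ratio with over without gRNA in the same bins, as a ratio of mean shares (0.452 in the lowest bin, 0.890 in the highest) and of their odds (0.447 and 0.790).

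Sites that already read G in part in untransfected cells did not show the lower level. At the 325 sites in exons of 1 gene with at least 5% in each untransfected run, the mean share was 34.4% without gRNA and 34.6% with gRNA, beside 23.9% with the gRNA alone and 22.4% to 22.9% in the untransfected runs. The gain over the untransfected mean was 11.8 points without and 11.9 points with gRNA, a ratio of 1.02. At the other 352100 adenosines of this kind the gain was 6.04 and 3.51 points, a ratio of 0.580. The 2 groups were not matched for level, as the others averaged only 6.17% without and 3.63% with gRNA. In the bins above, the ratio of mean shares rose with level. It was 0.792 between 30 and 50%, where the Cas13b shares averaged 33.8% without and 26.8% with gRNA. Of the 325 sites, 40 were higher with gRNA by 10 points and 28 were lower, 20.9% in all. Between pairs of technical untransfected runs 7.69% to 12.6% of these sites differed by as much. Between the gRNA alone and untransfected run 2, which are separate libraries, 21.5% did, with 42 higher and 28 lower. The share past 10 points in the fusion pair was thus no larger than in this 1 comparison of libraries without a deaminase construct. The gRNA alone was not compared with the other untransfected runs in this way.

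The immediate sequence context moved the ratio only over a narrow range. Among adenosines in exons of 1 gene (352425 sites, mean 6.19% without and 3.66% with gRNA, ratio 0.591), those with U at the 5′ side averaged 7.81% and 4.90%, a ratio of 0.628. Those with G at the 5′ side, the neighbour that ADAR2 favours least, averaged 4.12% and 2.19%, a ratio of 0.532. A and C at the 5′ side gave 0.588 and 0.574. The UAG triplet, the context of the target itself, averaged 9.02% and 5.76%, a ratio of 0.638, and GAC averaged 3.56% and 1.82%, a ratio of 0.511. The 4 bases at the 3′ side gave ratios from 0.579 to 0.597. The order of the 5′ neighbours was the same in both libraries, U highest and G lowest.

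The calls in the authors' deposited table shifted a little in the same way. Sites with U at the 5′ side were 24.9% of calls without gRNA and 28.7% of calls with gRNA. Sites with G were 9.18% and 7.31%, and UAG sites were 10.3% and 12.0%. Both sets of calls required a share above the same untransfected mean. Of the sites higher by 10 points, 35.3% had U at the 5′ side, against 29.7% of those lower by 10 points and 22.3% of all. When sites were held to an outside level of 5 to 10%, the ratio was 0.631 after U and 0.564 after G.

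Position within the transcript made little difference. The ratio was 0.583 in coding sequence (5.78% and 3.37%, 229269 sites), 0.606 in 3′ UTRs (7.18% and 4.35%, 102622 sites) and 0.574 in 5′ UTRs (5.55% and 3.19%, 14271 sites). Recoding sites had a ratio of 0.581 and synonymous sites 0.589. In 3′ UTRs 8.59% of sites were lower by 10 points, against 5.96% in coding sequence, beside the higher level there.

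Among sites called in both fusion libraries in the authors' deposited table and lying in exons of 1 protein-coding gene (42557 sites), 36365 were lower with gRNA and 6126 were higher. The 10 largest gains ran from 23.1 to 35.5 points. ATRN (attractin), a membrane and secreted glycoprotein, had 47.8% without and 83.3% with gRNA at R377G. SOCS7, a member of the suppressor of cytokine signalling family, had 24.1% and 52.4% at P508P. MAN2B2, an alpha-mannosidase, had 33.3% and 60.0% at Q406R. TAP1, a subunit of the peptide transporter that loads MHC class I, had 23.3% and 50% at Y525C.

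Of the other 6 gains, 3 were in 3′ UTRs and 3 in coding sequence. ZC3HAV1 (ZAP), an antiviral zinc-finger protein that binds CpG-rich RNA, had 55.2% and 78.8% at a 3′ UTR site, the highest level without gRNA among these gains. MACF1, a linker of microtubules and actin, had 23.9% and 50% at L6716L. The kinases CAMK2D and MAP4K4 had 39.1% and 63.4%, and 34.0% and 57.9%, at 3′ UTR sites. ZNF710 had 36.0% and 61.1% at Q21R. ATP2B4, a plasma membrane calcium pump, had 24.0% and 47.1% at Y216C. At all 10 sites the gRNA alone was at most 3.45% and each untransfected run at most 2.27%.

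The 10 largest losses among sites called in both libraries ran from -45.1 to -33.7 points. ABL1, a tyrosine kinase, had 64.3% without and 19.2% with gRNA at a 3′ UTR site. INA, the neuronal intermediate filament alpha-internexin, had 60.7% and 24.0%, and GPT2, the mitochondrial alanine aminotransferase, had 62.5% and 26.0%, both in 3′ UTRs. FUZ, a planar cell polarity protein needed for cilia, had 49.3% and 13.3% in its 5′ UTR. PDE8A, a cAMP phosphodiesterase, had 59.5% and 25.0% at N195S.

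The other 5 losses were 4 sites in 3′ UTRs and 1 synonymous site. CPD, a carboxypeptidase of the trans-Golgi, had 50% and 15.3%, and CD99L2 had 63.0% and 29.1%. MGME1, an exonuclease of mitochondrial DNA, had 50% and 16.1%. USP12, a deubiquitinase, had 65.2% and 31.4%. ZNF385A had 57.7% and 24.0% at A319A. These 10 sites had 49.3% to 65.2% without gRNA, and the 10 gains above had 23.3% to 55.2%, so the ranges overlapped. The sites were chosen on the difference itself, and a large loss requires a high share without gRNA. Their starting levels were thus partly set by that choice and are no test.

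The 4 MCP-ADAR2 DD (E488Q) libraries place these extremes. At the 10 losses the share without gRNA was above the highest of the 4 libraries at all 10 sites, and the share with gRNA was inside their range at 3 sites, above it at 3 and below it at 4. At the 10 gains the share with gRNA was above their range at 9 sites and inside it at 1, and the share without gRNA was inside it at 6 sites and above it at 4. At ATRN the 4 libraries ran from 27.6% to 45.8%, and at ABL1 from 24.2% to 37.8%. These sites were chosen for their differences within this pair, so the higher library is extreme by selection and the counts are no test. Over all listed sites the mean share was 6.16% in the Cas13b library without gRNA and 2.56% to 3.29% in these 4 libraries.

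A second rule took sites called in 1 of the fusion libraries only and in at least 5 of the other 20 deaminase libraries, by the authors' deposited table. It left 774 sites called with gRNA only and 19402 called without gRNA only. The largest gain was at a 3′ UTR site of RC3H2 (Roquin-2), an RNA-binding protein that promotes mRNA decay, with 29.2% without and 64.3% with gRNA. ARMC7 followed, with 14.3% and 46.2% in its 3′ UTR. PECR, a peroxisomal enoyl-CoA reductase, had 12.5% and 42.3% at Y205C. CEP120, a centriole protein, had 11.1% and 40% in its 5′ UTR.

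Of the next 6 gains, 1 was in a 3′ UTR and 5 were in coding sequence. SELENOI, an enzyme of phospholipid synthesis, had 19.0% and 45.8% in its 3′ UTR. The Rac exchange factor DOCK1 had 7.89% and 34.4% at S1778G. AKAP13, an anchoring protein for protein kinase A, had 22.7% and 47.1% at I1373M. SHROOM1 had 24.0% and 48.3% at V461V, PHKB, a subunit of phosphorylase kinase, had 23.8% and 47.4% at L246L, and the scaffold DLG5 had 10.3% and 32.0% at Q43R. The gRNA alone was at 0% at all 10. Without gRNA, 5 of these 10 sites were below the range of the 4 MCP-ADAR2 DD (E488Q) libraries, 4 inside it and 1 above it. They were chosen for their gains, so these counts are no test.

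Among sites called without gRNA only, the largest loss was at K5R of LINGO1, a component of the Nogo receptor complex, with 62.7% without and 10.2% with gRNA. A 3′ UTR site of ATP2B4 had 69.6% and 17.6%, while the Y216C site of the same gene was among the gains above. PHLDA3, an inhibitor of Akt signalling, had 60.9% and 11.9% in its 3′ UTR. ZC3H7A had 59.6% and 10.6% at L248L, and ZNF200 had 59.3% and 11.1% in its 5′ UTR.

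KLHL42, a substrate adaptor of a cullin ubiquitin ligase, had 63.2% without and 18.2% with gRNA at Q26R. RAB3GAP1, a regulator of Rab3 and Rab18, had 52.5% and 8.89% at K266R. ARHGEF2, a guanine nucleotide exchange factor bound to microtubules, had 51.7% and 9.68% at H524R, and WDR25 had 45.5% and 3.85% at Q512R. Without gRNA 9 of the 10 sites under this rule were above the range of the 4 MCP-ADAR2 DD (E488Q) libraries. With gRNA 6 were below it and 4 inside it. They were chosen for their losses, so these counts are no test.

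**Figure D5:**
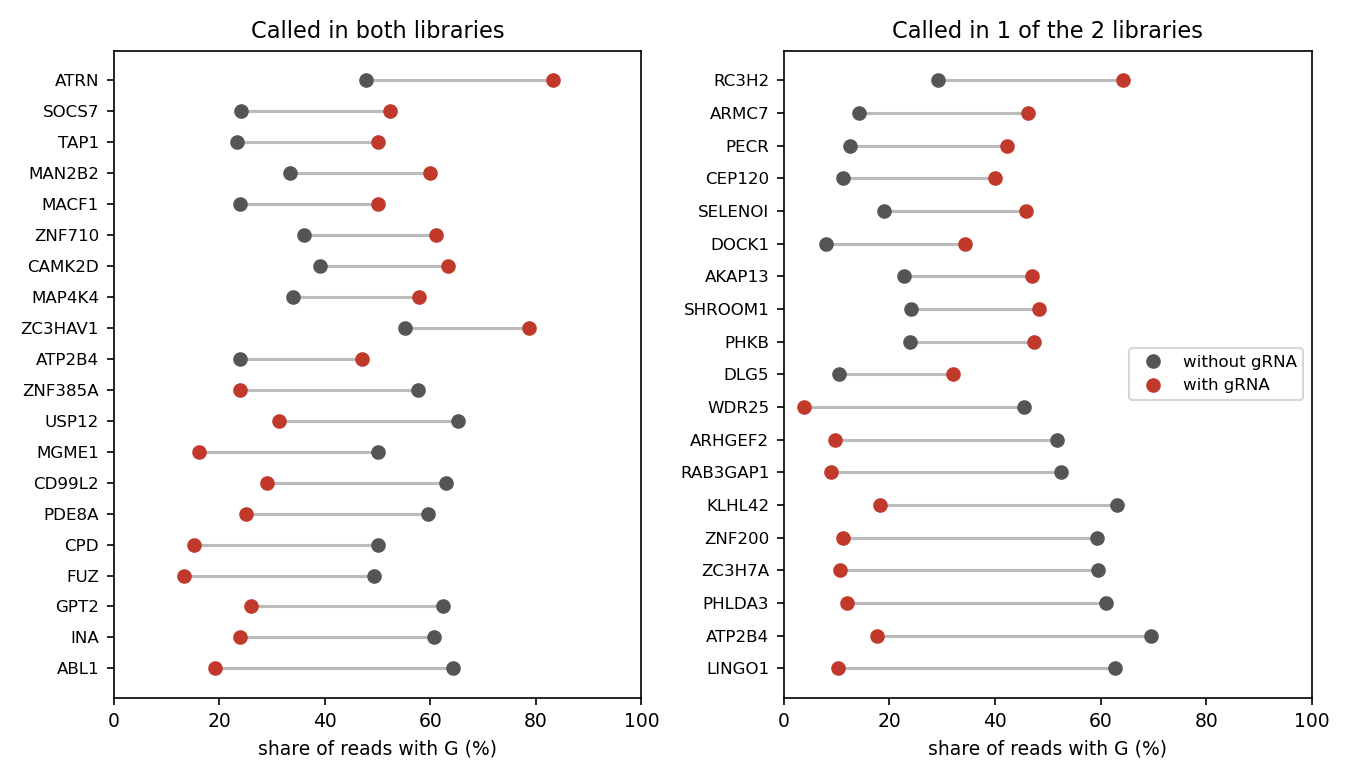
Share of reads with G (%) without gRNA (grey) and with gRNA (red) at sites named by rule, gains above and losses below in each panel, with 1 library per point and no error bars. Left, sites called in both libraries, from ATRN (47.8% to 83.3%) to ABL1 (64.3% to 19.2%); right, sites called in 1 of the libraries and in at least 5 others.

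The lower level with gRNA was spread over nearly all genes. Among 4696 genes with at least 20 listed sites, the mean share was lower with gRNA in 4667 and higher in 29, with a median of the gene means of -2.39 points. The gene ratios had a median of 0.578, a 1st percentile of 0.295 and a 99th percentile of 0.939. RAB7A ranked 1346 from the highest ratio, so its transcript as a whole was not at an end of this range.

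The 10 genes with the largest mean losses lost 11.4 to 16.8 points. USP12 averaged 25.9% without and 9.10% with gRNA over 27 sites, of which 23 were lower. UBE3B, a ubiquitin ligase, averaged 22.7% and 8.32% over 24 sites, and VPS18, a HOPS subunit that works with RAB7A in endosome fusion, averaged 23.1% and 9.22% over 24. TTC38 averaged 23.5% and 9.02%, and UPP1, uridine phosphorylase, 24.7% and 12.2%. LIMK2, a kinase that inactivates cofilin, averaged 21.8% and 9.38%, and AACS, acetoacetyl-CoA synthetase, 21.6% and 10.1%. URGCP averaged 18.1% and 5.84%, and METTL22 15.7% and 4.31%. In the MCP-ADAR2 DD (E488Q) libraries these 10 genes averaged 3.15% for USP12 to 12.8% for UPP1 over the same sites. All 10 were higher in the Cas13b library without gRNA than there, but they were chosen for their losses. Over all protein-coding genes the means were 6.18% in the Cas13b library without gRNA and 2.95% in the MCP libraries.

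At the other end the mean gains were small. EEF1D, a subunit of the elongation factor that recharges eEF1A, averaged 3.79% without and 5.30% with gRNA over 67 sites, 32 higher and 27 lower. SPC24, a kinetochore subunit of the NDC80 complex, averaged 5.32% and 6.51% over 23 sites, and SLC44A2, a choline transporter-like protein, 12.4% and 13.4% over 25. TAF4, CARS2, PHF13, LZTR1, GON4L, COL2A1 and GOLGA3 had mean gains of 0.469 to 0.944 points. Over the sites of each of these 10 genes the SD of the differences was larger than the mean gain, from 2.96 points for LZTR1 to 7.13 for GON4L. Sites of 1 gene share their reads and libraries and are not replicates.

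Gene groups were compared by the ratio of their mean shares. Over all protein-coding genes it was 0.591, with 6.77% of 348789 sites lower by 10 points and 0.348% higher. The 82 genes of cytosolic ribosomal proteins had the highest ratio, 0.713 (3.16% without and 2.25% with gRNA), with 1.17% of sites lower by 10 points. Translation factors had 0.692 (3.64% and 2.52%), and chaperones had 0.646 (4.56% and 2.95%). The zinc finger genes named ZNF had the lowest, 0.530 (7.61% and 4.04%), with 12.5% of 4981 sites lower by 10 points. The median difference was -0.24 points in cytosolic ribosomal protein genes and -1.92 in ZNF genes, against -1.20 in all protein-coding genes. No test was made between the groups.

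The remaining groups lay between these ends. Over all protein-coding genes 7993 of 8490 were lower in their mean with gRNA, which is the background for the counts of genes below. The mitochondrial ribosomal proteins had a ratio of 0.563 and the respiratory chain 0.571. Proteasome subunits had 0.626, solute carriers 0.626 and aminoacyl-tRNA synthetases 0.616. Rab GTPases other than RAB7A had 0.606 (6.68% and 4.05%), with 32 of 34 genes lower in their mean, and endosome and lysosome genes had 0.607 (7.04% and 4.27%), with 44 of 45 lower. Proteins that bind or sense double-stranded RNA had 0.595, with 18 of 18 genes lower. Known substrates of natural A-to-I editing had 0.668, with 19 of 19 lower. The relatives of RAB7A in its family and compartment were thus close to the ratio of all genes.

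The sites named from these groups were picked as the largest differences of their lists, far from the group medians, and show how wide the range was. The 40S subunit gene RPS9 had 40.5% without and 19.5% with gRNA in its 3′ UTR, and the 60S subunit gene RPL28 had 45.9% and 22.2%. EIF5, which activates the GTPase of eIF2, had 32.1% and 13.6% in its 3′ UTR and 32.8% and 17.0% at E266E. The HSP40 genes DNAJB1 and DNAJB2 had 60.2% and 38.2% in a 3′ UTR, and 63.5% and 42.7% at S124S. NDUFB11, a subunit of complex I, had 48.7% and 32.7% at R119G.

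The extremes of other lists were picked in the same way. RAB1B, a GTPase of the early secretory pathway, had 41.0% and 23.3% in its 3′ UTR, where all 20 other deaminase libraries were called in the authors' deposited table. ATP6V0A1, a subunit of the proton pump that acidifies lysosomes, had 49.2% and 19.3% in its 3′ UTR and was likewise called in all 20. AARS, alanyl-tRNA synthetase, had 44.3% and 27.0% at T136A, and YARS, tyrosyl-tRNA synthetase, had 36.0% and 17.4% at its stop codon. TARBP2, a Dicer partner that binds double-stranded RNA, had 55.1% and 27.5% in its 3′ UTR. Of the sites in this and the preceding paragraph, RPS9 had the highest share with the gRNA alone, 1.59%, and DNAJB1 the highest untransfected mean, 1.02%.

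Sites in ADARB1, the ADAR2 gene, are uncertain. K618R had 52.6% without and 21.7% with gRNA, and V604V had 52.6% and 26.2%. They lie in the deaminase domain, which the construct also encodes, so reads from the construct and from the endogenous gene cannot be told apart here. The untransfected runs, which received no construct, ranged from 0% to 41.1% at K618R. The source of that range was not tested.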

How the data were processed

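Libraries were prepared from 300 ng of HEK 293T RNA after poly(A) selection, and both ends were read for 100 bp, per the labels' protocols. Tools in the submitters' processing notes are STAR 2.6.0c, bcl2fastq 2.18.0.12 and SAMtools, with GRCh38.p12 as the build and no settings. The authors deposited a table with the fraction of reads carrying the edited base at each site, printed here as percentages, and a table of adjusted p-values for the same sites, per the file headers and value ranges. The sources used here state neither the test behind those p-values nor how sites were chosen. An adjusted p under 0.01 is present in at least 1 column at 382976 of 382978 sites, so the list holds sites that passed in some library, and a site listed for 1 fusion library alone is high there by selection. In the table of fractions 1 column of per-sample values has no sample name and was not used, which left the first untransfected run not analysed here. Because no read counts are given, depth per sample is unknown and no counting interval was computed. PCR reads without molecular identifiers would not be independent molecules.

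Sites were placed on GENCODE 29 transcripts with bedtools 2.31.1, Python 3.11.15, numpy 2.4.6, pandas 2.3.3 and scipy 1.17.1. The transcript base was adenosine at 99.9% of the 352930 sites lying in exons of 1 gene, and 27754 sites lay in exons of several genes. Whether the library kit keeps strand is not stated. The limma fit (limma 3.58.1, R 4.3.3) took the differences with minus without guide in 11 pairs, with an intercept, an indicator for the Cas13b pair and an intensity trend, and on simulated data it missed more of the planted changes than it recovered at every size. Other comparisons used exact permutation of pairs, adjusted by Benjamini-Hochberg over 3 measures. Plots were drawn with matplotlib 3.10.9.

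The target, rules and gene lists were chosen with earlier results of these data known. Named are the sites within 50 nt of the target, the 10 highest and 10 lowest differences among sites called in both fusion libraries, the same among sites called in 1 of them and in at least 5 of 20 other deaminase libraries (1 site per gene), the 10 genes at each end of the mean difference among those with at least 20 sites, up to 4 sites per gene list, and the sites called with the gRNA alone. Some sites and genes that these rules select are not reported here, though counts include them. Gene lists were made by symbol (cytosolic and mitochondrial ribosomal proteins, translation factors, proteasome, chaperones, respiratory chain, solute carriers, ZNF, Rab, aminoacyl-tRNA synthetases) or by name (endosome and lysosome, double-stranded RNA binding, natural substrates). Alternatives were other thresholds, site filters, baselines, bins and fits. The HEK 293T label could not be checked against expression markers, since the tables hold no expression values.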

Additional observations from a re-analysis of the deposited data

Results flagged for a closer look

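The count of 22 sites whose guide difference in the Cas13b pair departed from the other 10 pairs (limma, adjusted p under 0.05) is listed here because the fit compares the groups of libraries. All 22 were lower with gRNA in the Cas13b pair, with differences from -31.4 to -6.25 points. Of these, 20 were called by the authors' deposited table in no deaminase library outside the pair, so they are high without gRNA by the selection of the list, and the count was 0 among the 365546 sites called in at least 1 of those libraries.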

How the results depend on the processing

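No paired analysis was possible because the conditions share no replicate numbers from the labels, with 1 library each; libraries with and without guide were matched by construct only. The called counts of both fusion libraries kept within 1.5 times of their values under other thresholds and filters, and leaving out each untransfected run gave 49424 to 49425 sites with gRNA, 112837 to 112839 without and 23 to 23 with the gRNA alone, which fell to 15 when 5 points above the untransfected mean were required. Sites higher by the threshold numbered 5755 at 5 points, 137 at 20 points, 623 among sites with an adjusted p under 0.01 in either fusion library and 5863 after scaling by the ratio of mean shares. Sites lower numbered 74859, 3480 and, after scaling, 2355. Mean shares with and without gRNA were 3.56% and 5.91% over sites called elsewhere, 5.09% and 8.14% over sites strictly between 0 and 100% in both, and 3.48% and 6.01% above the untransfected mean. With bins from the 2 full-length ADAR2 (E488Q) libraries the ratio was 0.537 in the bin above 0 to 1% (0.494 with the MCP bins) and 0.790 in the bin over 50%. Over sites called elsewhere, added after the data were seen, these bins gave 0.508 and 0.878. The target minus the gRNA alone was 10.3% with and 1.20% without gRNA. The log2 ratio of called sites of the Cas13b pair less that of the others was -1.84. It was -1.71 at a threshold of 0.05, -1.83 at 0.001 and -2.19 against the 3 other ADAR2 E488Q pairs only. With the mean share in place of called sites the difference was -1.13. The limma count was 22, and became 2 without the trend, 14399 (151 higher, 14248 lower) on untransformed shares, 0 against the 3 other ADAR2 E488Q pairs (45692 at an unadjusted p under 0.05) and 0 among sites called elsewhere; the cause was not tested. Unknown depth limits every single-site share, and a share of 0 cannot be given an upper limit.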

Other observations

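The gains of EEF1D, the gene with the highest mean gain, lay in a single stretch of the transcript, which was picked out after its values were seen. The stretch spanning all gains of at least 5 points held 33 of its 67 listed sites and averaged 3.21% without and 7.59% with gRNA, with 25 sites higher and 6 lower. Only 3 of these 33 were called with gRNA, and 0 without it, in the authors' deposited table. The other 34 sites averaged 4.35% and 3.08%, with 21 lower and 7 higher, as in most genes. The stretch was chosen on the differences themselves, so its counts are a description.

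Of the 23 sites called with the gRNA alone in the authors' deposited table, 13 were also called in the fusion library with gRNA. In the fusion library without gRNA, 14 of the 23 were called. Among all listed sites, 12.9% were called with gRNA and 29.5% without gRNA by the same rule. All these calls were against the same untransfected control, and the overlap was not tested. On the transcript strand 15 of the 23 read T rather than A, against 0.143% of all 352930 sites in exons of 1 gene. Several of the 23 lie in pyrimidine-rich stretches. Windows of 21 bases from the annotated transcripts, with the called base in capitals, show this for MARCKSL1 and CALR.
MARCKSL1 5′ UTR, chr1:32336118 (-): gccccaccccTccgccggccg
CALR 3′ UTR, chr19:12944081 (+): ccccacccccTccccgccctt
MARCKSL1, a relative of the actin-binding protein MARCKS, had 42.4% with the gRNA alone, 33.7% in the fusion with gRNA, 35.5% without gRNA and 12.3% to 20.1% in the untransfected runs. CALR, the endoplasmic reticulum chaperone calreticulin, had 20.2%, 19.3%, 15.1% and 5.23% to 17.8%. At these MARCKSL1 and CALR sites the share was thus above 0 in all of these libraries. A T-reading site of ADARB1, chr21:45176646, was unlike them, with 52.9% with the gRNA alone, 53.5% in the fusion with gRNA, 73.1% without gRNA and 0% to 8.57% in the untransfected runs. Another of the 23, T375A in ADARB1, had 83.1% with the gRNA alone, 0.112% and 0.201% in the fusion libraries with and without gRNA, and 0% to 79.5% in the untransfected runs.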
